A study of Mus musculus with 6 samples.

Results

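The expression of 10 genes of bone mineralization and resorption was followed in the neonatal mouse brain. Ibsp, Dmp1, Phex, Mmp13, Sp7, Alpl, Ifitm5 and Omd are genes of osteoblasts and osteocytes, and Acp5 and Ctsk are genes of osteoclasts. They were represented by every probe set that the array annotation pairs with 1 of these genes alone, which gave 14 of the 45101 probe sets on the array and 10 of the 18193 genes with such a probe set. Dmp1 had 3 probe sets, Ibsp and Phex had 2 each and the other genes had 1 each. The genes were picked with earlier results of these arrays known, chiefly their difference between TP-treated and vehicle-treated females, so that difference is given as a description and supports nothing as a test.

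Brains came from neonatal C57BL/6 mice (C57BL/6J in the treatment protocol) that were injected intraperitoneally on postnatal day 2, and were taken whole on postnatal day 6. Testosterone propionate (TP), an ester of testosterone, was given at 1 mg per mouse in 20 µL of sesame oil, and vehicle mice received 20 µL of the oil alone. There were 2 arrays of female TP, 2 of female vehicle, 1 of male TP and 1 of male vehicle brains, and each array carried RNA pooled from 6 mice. The labels name no genetic change in any group. One female array of each treatment is named a replica and no label says whether its RNA was a separate pool, so the spread behind each p-value is that between arrays and may be only technical.

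Bone is made by osteoblasts, which secrete a collagen matrix and mineralize it. It is maintained by osteocytes, which are osteoblasts buried in that matrix, and is broken down by osteoclasts, large cells of the macrophage lineage that release acid and proteases onto the bone surface. These cells belong to bone and not to the brain that the skull encloses.

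The labelled tissue was checked with its markers. The 10 brain genes, among them Rbfox3, Snap25 and Tubb3 of neurons, averaged between 10.75 and 10.86 log2 units on the 6 arrays (1 log2 unit is a 2-fold step), on arrays whose medians lay between 5.69 and 5.74. Eif2s3y, a Y-linked translation factor, stood at 9.12 on the male TP array and 9.16 on the male vehicle array, against 2.84 to 3.09 on the female arrays. Xist, a noncoding RNA made from the inactive X chromosome, stood at 10.45 on the male TP array and 5.29 on the male vehicle array, against 12.61 to 12.83 on the female arrays. The array labelled male TP therefore went against its label for Xist, and results that rest on it are given with and without it where the design allows.

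The bases before the transcription starts of Ibsp, Dmp1 and Mmp13 are shown because these genes had the most similar patterns over the 6 arrays, given further on. Each run is the 250 bases before a start annotated in RefSeq (GRCm38.p6), 5′ to 3′ on the gene's own strand. Capitals mark matches on either strand to TGTGGT, the core bound by Runx factors of osteoblasts, to TGANTCA, the AP-1 site, to AGAACA, a half-site of the androgen receptor, and to CCAAT, the CCAAT box. In these runs no match overlapped another.
Ibsp, chr5:104299037-104299286, plus strand: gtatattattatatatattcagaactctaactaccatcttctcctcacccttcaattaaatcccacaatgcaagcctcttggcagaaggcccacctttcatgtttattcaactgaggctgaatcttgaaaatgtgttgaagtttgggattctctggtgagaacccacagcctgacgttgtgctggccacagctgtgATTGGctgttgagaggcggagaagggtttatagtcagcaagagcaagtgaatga
Dmp1 first start, chr5:104197325-104197574, plus strand: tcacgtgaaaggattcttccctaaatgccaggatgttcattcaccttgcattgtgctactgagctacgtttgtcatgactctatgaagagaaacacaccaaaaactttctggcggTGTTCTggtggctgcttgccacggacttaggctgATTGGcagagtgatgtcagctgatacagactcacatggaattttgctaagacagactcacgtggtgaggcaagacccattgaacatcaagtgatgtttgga
Dmp1 second start, chr5:104202367-104202616, plus strand: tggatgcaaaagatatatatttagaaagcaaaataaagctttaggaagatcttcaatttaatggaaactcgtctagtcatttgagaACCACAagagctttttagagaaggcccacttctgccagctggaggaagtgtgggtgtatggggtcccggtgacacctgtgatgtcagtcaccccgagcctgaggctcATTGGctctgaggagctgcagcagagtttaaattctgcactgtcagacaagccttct
Mmp13, chr9:7272264-7272513, plus strand: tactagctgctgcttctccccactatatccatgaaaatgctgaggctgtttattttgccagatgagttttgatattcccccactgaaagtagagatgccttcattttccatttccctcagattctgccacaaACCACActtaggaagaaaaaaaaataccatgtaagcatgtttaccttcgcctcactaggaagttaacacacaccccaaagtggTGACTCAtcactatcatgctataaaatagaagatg

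A CCAAT match, as ATTGG, began 54 bases before the Ibsp start, 101 bases before the first Dmp1 start and 57 bases before the second. CCAAT was found in 33.8% of the 32851 annotated windows of this length. The Runx core, as ACCACA, began 164 bases before the second Dmp1 start and 118 bases before the Mmp13 start, and was found in 14.0% of windows. The AP-1 site began 35 bases before the Mmp13 start and was found in 6.75% of windows. The androgen receptor half-site, as TGTTCT, began 135 bases before the first Dmp1 start and also lay in windows of Ctsk and Alpl, against 16.1% of all windows. An entry was found for 9 of the 10 genes, with 13 starts. Such a match describes the letters of the window and is not evidence of binding.

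The first comparison set TP-treated against vehicle-treated females, the question that the series' title names. Genes of the mineralizing matrix and of resorption had higher values with TP, led by Ibsp at 3.11-fold, Dmp1 at 2.17-fold, Acp5 at 1.98-fold, Mmp13 at 1.76-fold and Phex at 1.72-fold, each by its brightest probe set. Ctsk stood at 1.4-fold. No test supports these as a group, because the genes were picked on this contrast. The 4 remaining genes, Sp7, Alpl, Ifitm5 and Omd, lay between 0.87-fold and 1.21-fold. The median log2 difference was 0.43 over the 14 probe sets, beside -0.01 over all 45037 probe sets other than array controls.

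**Figure D1:**
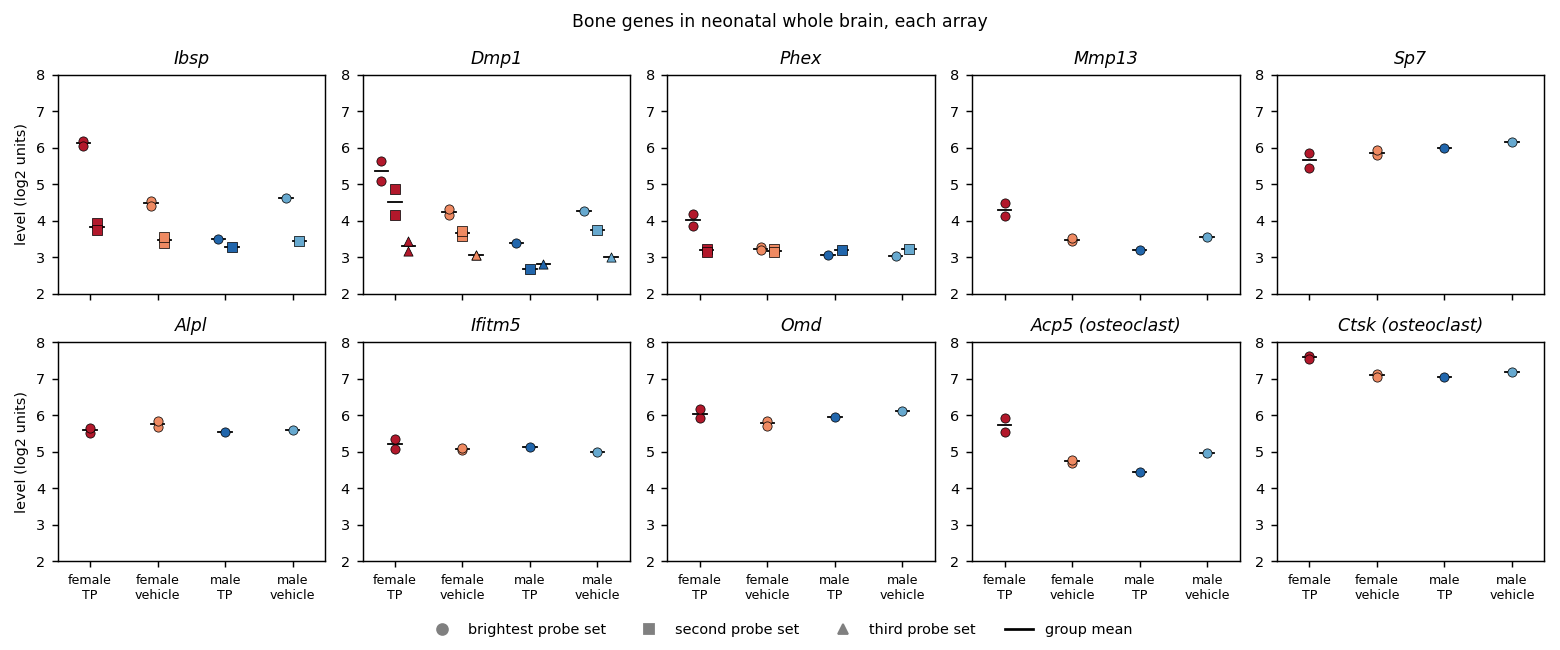
Level of the 10 genes (log2 units, vertical axis) on each array of the 4 groups (horizontal axis). Each point is 1 array, bars are group means, and circles, squares and triangles are the probe sets of a gene from the brightest to the dimmest. The 2 female TP points of Ibsp (6.19 and 6.04), Acp5, Mmp13, Ctsk and the brightest Dmp1 and Phex probe sets lie above all other arrays. Those of Sp7, Alpl, Ifitm5 and Omd do not.

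Among the matrix proteins, Ibsp encodes integrin-binding sialoprotein, an acidic phosphoprotein that binds mineral and cells. Its brighter probe set stood at 6.19 and 6.04 log2 units in female TP brains, against 4.54 and 4.41 in female vehicle brains. The groups were 1.5 log2 units apart at their nearest, while the arrays of a group differed by 0.15 with TP and 0.12 with vehicle. The difference was 1.64 (SE 0.10), the highest of all 45037 probe sets. The dimmer Ibsp probe set gave 3.92 and 3.75 with TP, against 3.38 and 3.54 with vehicle, a difference of 0.38 (SE 0.10). Both probe sets had the TP arrays on top, and the size of the difference depended on which was read.

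Dmp1 encodes an acidic protein of the dentin and bone matrix that is made mainly by osteocytes. Its brightest probe set stood at 5.09 and 5.62 in female TP brains, against 4.16 and 4.31 in female vehicle brains, a difference of 1.12 (SE 0.17). The second stood at 4.14 and 4.86 with TP, against 3.59 and 3.72 with vehicle, a difference of 0.85 (SE 0.22). These probe sets are listed with the same sequence record, so they are not independent readings. The array's naming marks both as able to bind other transcripts too, so their signal need not be from Dmp1 alone. The third, drawn from another sequence, stood at 3.17 and 3.45 with TP, against 3.07 and 3.06 with vehicle, a difference of 0.24 (SE 0.11). In all of them the female groups did not overlap, and the second TP array was the higher one.

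Omd encodes osteomodulin, a small proteoglycan of the bone matrix. It stood at 5.91 and 6.18 in female TP brains, against 5.85 and 5.70 in female vehicle brains, and its groups were only 0.06 log2 units apart at their nearest. Its difference of 0.27 (SE 0.12) was about as large as the gap of 0.26 between the TP arrays.

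Of the regulators of mineral and phosphate, Phex encodes an endopeptidase of osteoblasts and osteocytes whose loss causes phosphate wasting. Its brighter probe set stood at 3.84 and 4.19 in female TP brains, against 3.27 and 3.19 in female vehicle brains, a difference of 0.79 (SE 0.13). The other Phex probe set stood at 3.23 and 3.14 with TP, against 3.22 and 3.13 with vehicle, a difference of 0.00 (SE 0.09). The 2 probe sets of Phex thus disagreed. Alpl encodes tissue-nonspecific alkaline phosphatase, the enzyme that frees phosphate for mineral. It stood at 5.51 and 5.66 with TP, against 5.68 and 5.83 with vehicle, and was the only one of the 14 probe sets with both TP arrays below both vehicle arrays (difference -0.16, SE 0.10).

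Sp7 encodes osterix, a transcription factor needed to form osteoblasts, and Ifitm5 a membrane protein of mineralizing osteoblasts. Sp7 stood at 5.86 and 5.44 in female TP brains, against 5.79 and 5.92 in female vehicle brains. Ifitm5 stood at 5.07 and 5.35 with TP, against 5.04 and 5.11 with vehicle. For both genes the groups overlapped, with differences of -0.21 (SE 0.14) for Sp7 and 0.14 (SE 0.11) for Ifitm5.

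The genes of matrix breakdown had both female TP arrays above both vehicle arrays, and none passed limma's threshold (adjusted p = 0.525 for Mmp13, 0.47 for Acp5 and 0.525 for Ctsk). Mmp13, a collagenase of osteoblasts and of growing cartilage, stood at 4.47 and 4.13 in female TP brains, against 3.45 and 3.51 in female vehicle brains, a difference of 0.82 (SE 0.12). Acp5, the tartrate-resistant acid phosphatase that marks osteoclasts, stood at 5.53 and 5.91 with TP, against 4.69 and 4.78 with vehicle, a difference of 0.99 (SE 0.13). Ctsk, the cathepsin that degrades collagen under the osteoclast, stood at 7.62 and 7.54 with TP, against 7.14 and 7.04 with vehicle, a difference of 0.49 (SE 0.09). In all 3 the groups were apart, by 0.62 log2 units for Mmp13, 0.76 for Acp5 and 0.40 for Ctsk.

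Counted over the 14 probe sets, 12 (of 8 genes) had a positive difference in females, beside 46.0% of all probe sets. Of the 14, 10 (of 7 genes) had both female TP arrays above both vehicle arrays, beside 17.1% of all probe sets, and 1 had them below, beside 21.3%. With a difference of at least 1.5-fold as well, 6 probe sets of 5 genes were higher and 0 lower, beside 0.0977% and 0.0444% of all probe sets. By limma's test with Benjamini-Hochberg adjustment over all probe sets, 1 of the 14, the brighter Ibsp probe set (adjusted p = 0.0482), passed the threshold of 0.05, beside 0.00888% of probe sets called higher and 0.00222% called lower. The genes were picked on this contrast, so these counts say nothing further about them. Without any single female array Ibsp no longer passed, while its difference lay between 1.56 and 1.71. Its limma adjusted p was 1.0 and 0.983 when the first or the second TP array was dropped, and 0.617 and 0.347 when the first or the second vehicle array was. In brain RNA of this kind, fewer cells of a type and less RNA per cell cannot be told apart.

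The level of these genes sets a limit on the sizes. Of the 14 probe sets, 6 had a mean over all arrays above the 40th percentile of probe sets (4.98 log2 units), namely those of Sp7, Alpl, Ifitm5, Omd, Acp5 and Ctsk. Acp5 was above it only through its female TP arrays (5.53 and 5.91), as its other arrays lay between 4.45 and 4.95. The other 8, of Ibsp, Dmp1, Phex and Mmp13, were below it. No detection call was used.

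The female TP arrays also lay further apart than the vehicle arrays for most of these genes, which is given as a description. The arrays of the TP pair were further apart than those of the vehicle pair for 12 of the 14 probe sets, beside 43.1% of all probe sets. The median gap was 0.28 log2 units in the TP pair and 0.11 in the vehicle pair for the 14 probe sets, beside 0.09 and 0.11 over all probe sets. The TP arrays did not differ in one direction: TP array 2 was the higher for 8 of the 14 probe sets, those of Dmp1, Ifitm5, Omd, Alpl and Acp5 and the brighter one of Phex, beside 53.0% of all probe sets, and TP array 1 was the higher for Ibsp, Mmp13, Sp7, Ctsk and the other Phex probe set.

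Osteoblast and osteocyte genes were set beside osteoclast genes in the same comparison. The median female difference was 0.32 over the 12 probe sets of osteoblast and osteocyte genes, which ranged from -0.21 to 1.64, with 10 positive and 2 negative. Acp5 and Ctsk gave a median of 0.74. Both medians were positive, and the osteoblast and osteocyte probe sets covered the wider range. With only 2 osteoclast probe sets, no difference between the classes was tested.

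Most other genes of bone had small differences in the same comparison. Each gene of 13 lists of known markers was read by its brightest probe set, and 0 of the 103 measured genes passed limma's threshold in females. At an unadjusted p under 0.05 there were 3 higher and 9 lower, beside 4.0% and 4.13% of all probe sets. Among 8 further osteoblast and bone matrix genes, 7 differences were positive and 1 negative (median 0.02). The brightest of these, Sparc (osteonectin), Col1a2 and Col1a1 (the chains of type I collagen), had differences of 0.03 (SE 0.09), 0.10 (SE 0.08) and 0.07 (SE 0.12). Type I collagen, the main collagen of bone, is also made by other connective tissue.

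Of 5 further osteocyte genes, 1 was positive and 4 were negative (median -0.03). Pdpn, a membrane glycoprotein of young osteocytes and of other cells, had -0.17. Mepe, a matrix phosphoglycoprotein, had -0.18 and Sost, a Wnt inhibitor, 0.13. Mepe and Sost were dim, with means over all arrays of 4.36 and 3.47. Some other genes of the osteocyte and osteoclast lists also lay below the 40th percentile (4.98 log2 units). For such genes a small difference does not show that the gene was unchanged. Among 8 regulators of phosphate and mineral, 2 were positive and 6 negative (median -0.05), with the phosphate and pyrophosphate transporters Slc20a1 and Ank at 0.12 and -0.02 and the sphingomyelinase Smpd3 at 0.06. Among 13 further osteoclast genes, 7 were positive and 6 negative (median 0.01). The brightest of them, Car2 (carbonic anhydrase), Ostm1 (the partner subunit of Clcn7) and Clcn7 (a chloride transporter of the osteoclast), had 0.10, -0.11 and -0.06. Calcr, the calcitonin receptor gene used as an osteoclast marker, had -0.12 and Mmp9, a gelatinase, 0.22 with overlapping groups. The largest difference of this list was -0.27, for Tnfrsf11a. Of the 13, 1 had both TP arrays above both vehicle arrays and 5 had them below, beside 17.1% and 21.3% of all probe sets. Of the 6 genes for ligands that drive osteoclast formation and their receptors, 1 was positive and 5 negative (median -0.08), with Csf1r at 0.03, Csf1 at -0.08 and the signalling adaptor Traf6 at -0.01. Which cells made the brightest listed genes cannot be told from whole brain RNA, so their differences need not be those of bone cells. Among them were Car2, Csf1r and Sparc, with means over all arrays of 10.01, 10.04 and 11.43.

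Markers of other tissues were read in the same comparison. The median female difference was -0.06 for 12 cartilage genes, 0.07 for 10 genes of meninges and connective tissue, 0.02 for 8 genes of skeletal muscle, -0.12 for 7 of epidermis and 0.00 for 7 of microglia and macrophages. Mean levels of the cartilage list were 5.09 and 5.05 in female TP brains, against 5.12 and 5.20 in female vehicle brains, and those of the meninges list 7.06 and 7.14, against 7.11 and 7.15. For red blood cells 3 genes were measured, and Alas2 (0.32) and Slc4a1 (0.29) had both TP arrays on top. Hba-a1 (-0.16) overlapped between groups and was dim, with a mean over all arrays of 3.75, which limits what its difference shows. The red blood cell list averaged 5.25 and 5.44 with TP, against 5.20 and 5.19 with vehicle. Its part in the bone gene differences was not tested. Of the 6 neutrophil genes 2 were positive and 4 negative (median -0.09), and 3 had both TP arrays below both vehicle arrays, beside 21.3% of all probe sets. Camp was among them at -0.36, the largest difference of any listed gene. In the cartilage list 6 of 12 genes, and in the epidermis list 5 of 7, also had both TP arrays below, and 0 of either list had them above. The neutrophil list averaged 4.87 and 4.77 with TP, against 4.97 and 4.91 with vehicle, and its part was not tested either.

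**Figure D2:**
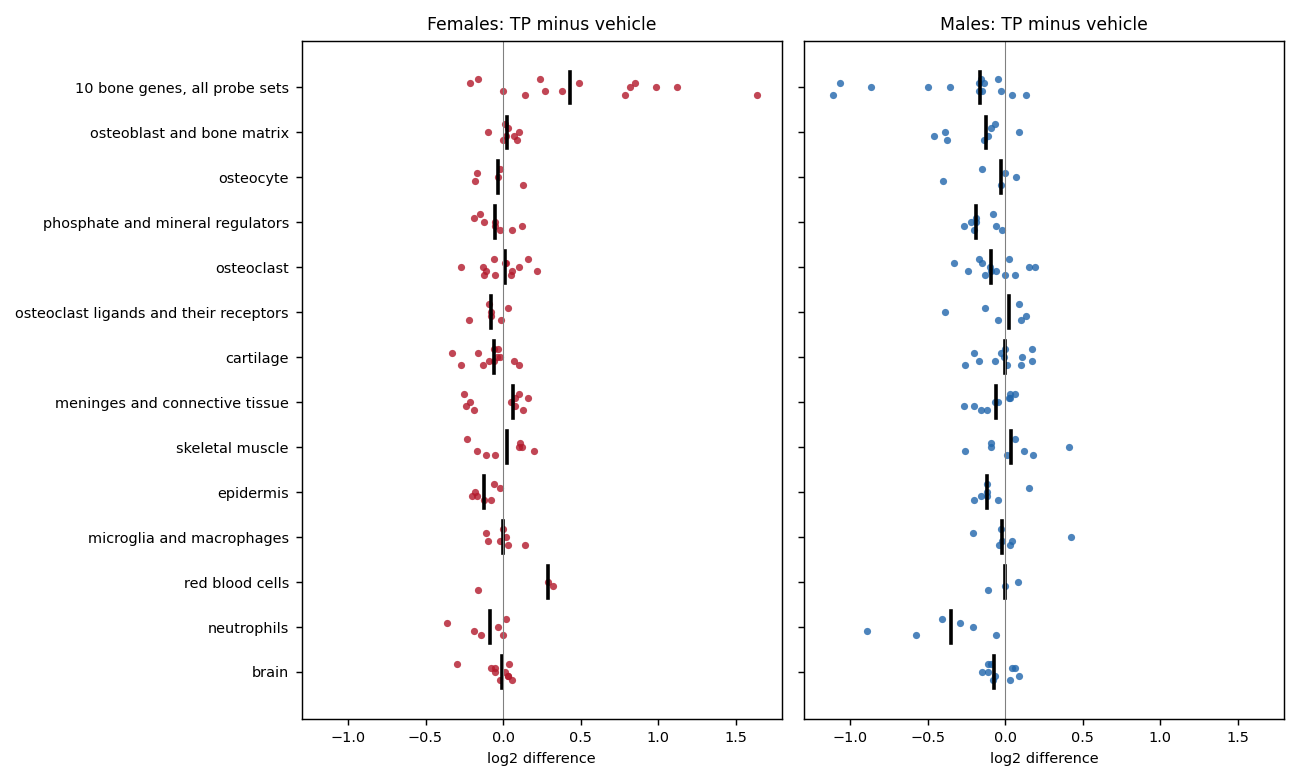
Difference between TP and vehicle (log2, horizontal axis) in females (left) and in males (right) for the 14 probe sets of the 10 bone genes and for each measured gene of 13 lists (rows). Points are probe sets or genes and black bars are medians. The 10 bone genes reach 1.64 in females and -1.11 in males, and the female differences of all listed genes lie between -0.36 and 0.32.

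Ibsp and Dmp1 are neighbours on chromosome 5, in a cluster of genes for acidic matrix proteins. In the order of protein-coding genes on the chromosome, Sparcl1 and Dspp come before Dmp1, and Mepe follows Ibsp. The female differences along that order were 0.04 for Sparcl1, -0.03 for Dspp, 1.12 for Dmp1, 1.64 for Ibsp and -0.18 for Mepe. High values were thus found for the adjoining Dmp1 and Ibsp and not for the measured genes on either side. Dspp and Mepe were dim, with means over all arrays of 3.39 and 4.36, which limits what their small differences show. Spp1, which follows Mepe, had no probe set paired with it alone.

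With a single male array for each treatment no test was made, and the male TP array is the one that went against its label for Xist. The brighter Ibsp probe set stood at 3.49 on the male TP array and 4.61 on the male vehicle array. Its difference of -1.11 was the lowest of all 45037 probe sets, the same probe set that was highest in females. The brightest and second Dmp1 probe sets stood at 3.39 and 2.66 with TP, against 4.26 and 3.73 with vehicle, and their differences of -0.87 and -1.07 were the fifth and second lowest of all probe sets. Earlier results that were known when the genes were picked held the male levels of Ibsp, so these values too are a description.

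Acp5 stood at 4.45 on the male TP array and 4.95 on the male vehicle array, a difference of -0.50. Mmp13 stood at 3.19 with TP and 3.55 with vehicle (-0.36), and Ctsk at 7.04 with TP and 7.18 with vehicle (-0.14). The brighter Phex probe set stood at 3.07 with TP and 3.03 with vehicle (0.04), and so did not have the lower male TP value of those genes. The male differences of Sp7, Omd, Alpl and Ifitm5 were -0.17, -0.15, -0.05 and 0.13.

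In all, 12 of the 14 probe sets, of 9 genes, were lower on the male TP array, beside 54.3% of all probe sets. At least 1.5-fold lower were 3 of the 14, those of Ibsp and Dmp1, beside 0.284% of all probe sets, and 0 were 1.5-fold higher, beside 0.77%. The median male difference was -0.17 over the 12 probe sets of osteoblast and osteocyte genes and -0.32 over the 2 of osteoclast genes, beside -0.02 over all probe sets. For 7 of the 14 the male TP array was the lowest of the 6, beside 21.0% of all probe sets; these were both probe sets of Ibsp, all 3 of Dmp1 and those of Mmp13 and Acp5.

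Some other lists were also lower on the male TP array. Of the 8 further osteoblast and bone matrix genes 7 were lower (median -0.12), with Col1a1 at 7.35 with TP and 7.81 with vehicle and Col1a2 at 10.53 and 10.93. All 8 regulators of phosphate and mineral were lower (median -0.19), and so were all 6 neutrophil genes (median -0.35), with S100a9 at 5.17 with TP and 6.06 with vehicle. Of the 13 further osteoclast genes 8 were lower (median -0.09). These lists averaged 7.87 on the male TP array and 8.06 on the male vehicle array for osteoblast and bone matrix, 7.66 and 7.82 for phosphate and mineral regulators, 5.05 and 5.46 for neutrophils and 6.00 and 6.07 for osteoclasts, and their part in the values of the 10 genes was not tested.

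**Figure D3:**
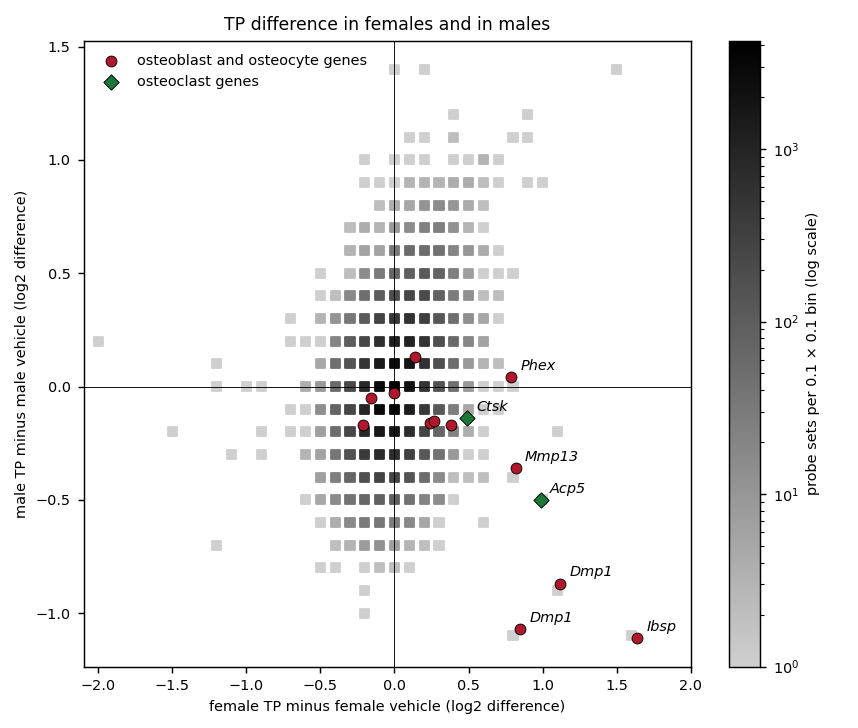
Difference between TP and vehicle in females (horizontal axis) against that in males (vertical axis), both in log2 units. Grey squares count all probe sets in bins of 0.1 (10 probe sets above 1.5 in males are not drawn), red circles are probe sets of osteoblast and osteocyte genes and green diamonds those of osteoclast genes. Ibsp (1.64 and -1.11), Dmp1 and Acp5 lie at the lower right, away from most probe sets.

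The TP differences of the sexes had opposite signs for several of these genes, and lay furthest apart for Ibsp, Dmp1 and Acp5. Of the 14 probe sets, 9 (of 6 genes) had both female TP arrays above both female vehicle arrays and the male TP array below the male vehicle array, beside 6.06% of all probe sets. With the male TP array above the male vehicle array there was 1, the brighter Phex probe set, beside 11.0%. Among the 9, some male differences were small: -0.14 for Ctsk, -0.15 for Omd, -0.16 for the dimmest Dmp1 and -0.17 for the dimmer Ibsp probe set. The difference between the male arrays had an SD of 0.207 over all probe sets, controls included, so the signs of these small values carry little weight. The female part of this count rests on the contrast used to pick the genes, and the difference between the sexes was not tested.

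Levels in the 4 groups can be ordered for the genes with the largest spread. For the brighter Ibsp probe set the order was female TP (6.11 ± 0.11, SD, n = 2), male vehicle (4.61), female vehicle (4.48 ± 0.09, n = 2) and male TP (3.49). Acp5 followed the same order, with female TP at 5.72 ± 0.26, male vehicle at 4.95, female vehicle at 4.73 ± 0.06 and male TP at 4.45. Male vehicle and female vehicle were the closest neighbours in both, with differences of 0.13 (SE 0.12) for Ibsp and 0.22 (SE 0.11) for Acp5. For the brightest Dmp1 probe set they stood at 4.26 and 4.23 ± 0.11. The vehicle groups could not be ordered beyond the spread between arrays for Ibsp and Dmp1, and the difference for Acp5 did not pass limma's threshold (adjusted p = 0.86).

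Male brains were also compared with female brains. This contrast averages the sex difference of the TP arrays and that of the vehicle arrays, so the female TP levels on which the genes were picked enter it, and its values are not independent of that choice. In a limma fit of sex and treatment over all 6 arrays, 0 of the 14 probe sets passed in either direction beside 0.0222% of all probe sets called higher and 0.0% called lower in males. An unadjusted p under 0.05 was found for 5 of the 14, beside 12.1% of all probe sets. Males were lower for 11 of the 14, of 8 genes, beside 52.1% of all probe sets. The largest differences were -1.25 (SE 0.51, adjusted p = 0.396) for the brighter Ibsp probe set, -0.97 (SE 0.39, adjusted p = 0.392) and -0.89 (SE 0.39, adjusted p = 0.422) for the brightest and second Dmp1 probe sets and -0.58 (SE 0.17, adjusted p = 0.324) for the brighter Phex probe set. Sp7 ran the other way, at 0.31 (SE 0.12, adjusted p = 0.375). Both male arrays lay below all 4 female arrays for 2 of the 14, the brighter Phex and dimmest Dmp1 probe sets, beside 11.2% of all probe sets, and above them for 1, Sp7, beside 8.58%.

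This fit gives both sexes 1 common TP term, whereas the TP differences of Ibsp and Dmp1 had opposite signs in females and males. With the vehicle arrays alone, where the single male array was assumed to vary like the female ones, Ibsp stood at 4.61 in the male and 4.54 and 4.41 in the females, a difference of 0.13 (SE 0.12, limma adjusted p = 0.891). The same fit gave 0.03 (SE 0.12) for the brightest Dmp1 probe set, 0.22 (SE 0.11) for Acp5, 0.07 (SE 0.11) for Mmp13 and -0.20 (SE 0.11) for the brighter Phex probe set. Sp7 and Omd had the largest values of the 14, 0.29 (SE 0.12) and 0.32 (SE 0.12), with a limma adjusted p of 0.855 each, the lowest of the 14. Leaving out the male vehicle array, which sets male TP against female TP, gave -2.62 (SE 0.12, limma adjusted p = 0.000803) for Ibsp, the only one of the 14 to pass, and -1.96 (SE 0.21, limma adjusted p = 0.124) for the brightest Dmp1 probe set. That comparison rests on the female TP arrays on which the genes were picked. Leaving out the male TP array from the fit of all arrays again sets male vehicle against female vehicle. Its differences are therefore the same by construction, 0.13 (SE 0.12) for Ibsp and 0.03 (SE 0.21) for the brightest Dmp1 probe set, and add no second reading. Without the male TP array, the lower male values of Mmp13, Acp5, Ctsk, the brighter Ibsp probe set and the brightest and second Dmp1 probe sets turned to small positive ones, while the dimmest Ibsp and Dmp1 probe sets had -0.01 and -0.08.

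**Figure D4:**
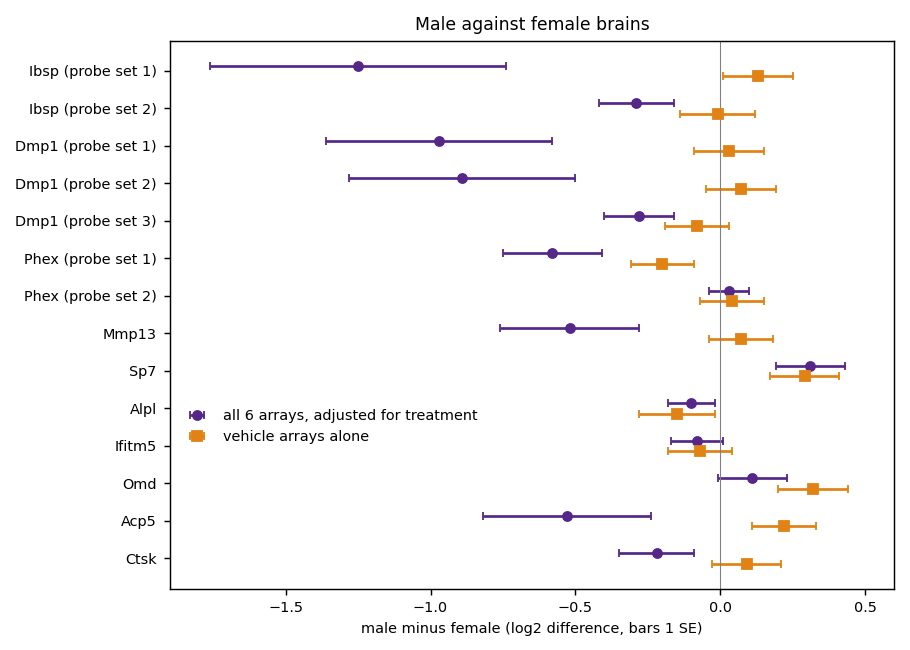
Difference between male and female brains (log2, horizontal axis) for each of the 14 probe sets (rows, the brightest of a gene as probe set 1). Circles are from the fit of all 6 arrays adjusted for treatment and squares from the vehicle arrays alone, with bars of 1 SE. Ibsp lies at -1.25 in the fit of all arrays and at 0.13 in the vehicle arrays, and Sp7 at 0.31 and 0.29.

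The patterns over all 6 arrays were compared with that of the brighter Ibsp probe set by Pearson's r, among the 65 single-gene probe sets of other genes whose values ranged over at least 1 log2 unit. The 5 most similar genes were Mmp13 (r = 0.973), Dmp1 (0.958), Cd47 (0.951), Acp5 (0.949) and Phex (0.893). Without the male TP array r was 0.974 for Mmp13, 0.926 for Dmp1, 0.991 for Cd47, 0.939 for Acp5 and 0.923 for Phex. The 65 held 5 probe sets of 4 bone genes, of which 1 would have met the range of 1 log2 unit without the female TP arrays, so the presence of bone genes here follows from how they were picked. Cd47, a widely expressed surface protein, stood at 6.64 and 6.67 in female TP brains, against 5.47 and 5.57 in female vehicle brains, and at 5.40 on the male TP array, against 5.63 on the male vehicle array. The second Dmp1 probe set had r = 0.906, and 0.831 without the male TP array. These values describe 6 arrays in 4 groups, in which the female TP arrays were highest for all these genes, and the bone genes were picked with these levels known.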

How the data were processed

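Expression was measured on Affymetrix arrays, each with RNA pooled from 6 mice. The deposited log2 values were made by the authors with RMA, per the submitters' processing notes (version not given in the sources used here), a method that adjusts background, quantile-normalizes the arrays and gives 1 value per probe set. Differences of dim probe sets can be understated on that scale. Probe sets were named through the platform's annotation: 34945 had 1 gene, 932 several and 9160 none, 64 were controls, and gene identifiers of 34741 were found in RefSeq (GRCm38.p6), with 0 symbols updated.

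Tests used lmFit and eBayes of limma 3.58.1 (R 4.3.3), two-sided, over all 45037 probe sets other than controls, with Benjamini-Hochberg adjustment over all of them and a threshold of 0.05. The code was tested on simulated data. Females were fitted on their 4 arrays, and sex with treatment as a covariate on all 6. Male TP against male vehicle was not tested and was read at 1.5-fold. Of 115 entries in 13 gene lists 103 were measured, each gene by its brightest probe set, and the others are not analysed here. The genes, lists and settings were chosen with earlier results of these data known. All probe sets of the 10 genes are named, with the 3 brightest genes of each bone list and the 5 genes most like Ibsp. Calcr, Mmp9, Tnfrsf11a, Dspp, Sparcl1, Alas2, Slc4a1, Hba-a1, Camp and S100a9 were added after their values were seen. Figures used Python 3.11.15, pandas 2.3.3 and matplotlib 3.10.9.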

Additional observations from a re-analysis of the deposited data

Results flagged for a closer look

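For 9 of the 14 probe sets, of 6 genes, the female TP arrays both lay above the female vehicle arrays while the male TP array lay below the male vehicle array. The share of all probe sets was 6.06%. The TP difference in females minus that in males was 2.75 log2 units for the brighter and 0.55 for the other Ibsp probe set. For Dmp1 it was 1.99, 1.92 and 0.40, from the brightest to the dimmest probe set. It was 1.48 for Acp5 and 1.18 for Mmp13, and 0.63 for Ctsk and 0.42 for Omd. These differences between the sexes were not tested, since the female part is the contrast the genes were picked on, and the male part rests on 1 array per treatment, of which the TP array stood at 10.45 log2 units for Xist against 5.29 on the male vehicle array. Without that array there is no male TP value.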

How the results depend on the processing

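Of the 14 probe sets, the number past the threshold in females was 1 in the chosen fit. It was also 1 with the brightest probe set per gene, quantile normalization again and centring on medians. With the original or replica array as a replicate block it was 1 as well (Ibsp, limma adjusted p = 0.0458). Fitting all 6 arrays in 4 groups gave 1 by construction, because single male arrays add nothing to the spread and the female fit stays the same. The number was 0 with probe sets averaged per gene and 0 with dim probe sets left out, which removes Ibsp. It was 3 with an intensity trend (Ibsp, Acp5 and Dmp1, limma adjusted p of 0.00119, 0.0354 and 0.0458) and 6 by 1.5-fold without overlap. Leaving out 1 female array gave 0 in each case, with 0 calls among all probe sets by limma and 1875 to 5731 at an unadjusted p under 0.05. Over all probe sets the chosen fit called 5 in females, the replicate block 2, centring 13, quantile normalization 8, the trend 37, the mean per gene 3 and dim probe sets left out 1. For the sex comparison the chosen fit called 10, with 3 for the brightest probe set or mean per gene, 1 without dim probe sets, 19 without the male vehicle array and 49 with the trend. The replica minus original deviations of TP and vehicle had r = 0.106 over probe sets, which with 2 pairs does not show pairing.

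The class median of osteoblast and osteocyte probe sets minus that of osteoclast probe sets was -0.41 in females, -0.21 with the brightest probe set per gene and -0.75 without dim probe sets. Both settings use fewer probe sets. The cut for dim probe sets was set on means that include the female TP arrays. It kept Acp5 only through those arrays and removed Ibsp, Dmp1, Phex and Mmp13, so the -0.75 is not independent of the female contrast. Leaving out 1 female array gave -0.42 to -0.36. In the sex comparison 0 of the 14 passed under the alternatives run, except that Ibsp passed (1 of 14, adjusted p = 0.000803) without the male vehicle array, which leaves male TP against female TP. With vehicle arrays alone the sign turned from negative to positive, at 0.13 for Ibsp, 0.03 and 0.07 for the brighter Dmp1 probe sets, 0.07 for Mmp13, 0.22 for Acp5 and 0.09 for Ctsk. Without the male TP array the contrast is the same, so these values are repeated by construction. Leaving out each of the 6 arrays in turn, where the run without the male vehicle array was added after seeing the data, these values ranged from -2.62 to 0.13 for Ibsp, -1.96 to 0.03 and -1.85 to 0.07 for Dmp1, -1.11 to 0.07 for Mmp13, -1.27 to 0.22 for Acp5 and -0.54 to 0.09 for Ctsk, and from -0.10 to 0.32 for Omd. The dimmer Phex probe set turned to -0.03 with quantile normalization again and -0.02 with the replicate block, and Ifitm5 to 0.01 with that block. Differences in females depended on single arrays: leaving out each in turn, they ranged from 0.49 to 1.21 for the second and 0.10 to 0.38 for the dimmest Dmp1 probe set, 0.14 to 0.40 for Omd, -0.41 to 0.00 for Sp7, 0.00 to 0.28 for Ifitm5 and -0.24 to -0.09 for Alpl. In males 3 of the 14 were past 1.5-fold with either normalization and 2 with the brightest probe set per gene or at 2-fold. Other scalings moved the median of all probe sets by under 0.1. Low signal over background limits the sizes given for Ibsp, Dmp1, Phex and Mmp13, and also for Acp5, which was above the cut for dim probe sets only through its female TP arrays.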
